A study of Homo sapiens with 4 samples.

Results

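The fibroblast growth factor (FGF) receptor system was followed in PC9 and PC9OR cells through 10 genes: the receptor kinases FGFR1, FGFR2, FGFR3 and FGFR4, the kinase-free receptor FGFRL1, the ligands FGF2 and FGF19, the secreted ligand carrier FGFBP1, the receptor adaptor FRS2 and the co-receptor KLB. They were chosen by gene name with the PC9OR against PC9 values of these same libraries already known, so their fold changes are given as a description, without a test. The 10 genes were matched by Entrez identifier among 16813 genes listed in at least 1 library, and 9 of the 10 were listed somewhere. PC9 is a human lung adenocarcinoma line with an activating *EGFR* mutation, and PC9OR is the osimertinib-resistant line derived from it. Osimertinib is an inhibitor of the EGFR kinase. The labels give PC9 as control and PC9OR as osimertinib resistant, both as wild-type in genotype, with 2 biological replicates of each line and 4 libraries in all. Both lines were grown in RPMI medium with serum, and the labels name no drug given to the cultures that were sequenced. With a single resistant line, resistance and any other difference between the cultures cannot be told apart. In bulk RNA, fewer cells of a kind and less RNA per cell cannot be told apart either.

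FGF receptors are single-pass tyrosine kinases of the cell surface. An FGF bound together with heparan sulfate joins a pair of receptors, the kinases phosphorylate each other and the docking protein FRS2, and FRS2 recruits GRB2, SOS and SHP2 (the product of *PTPN11*) to turn on RAS and the MAP kinase cascade. The cascade in turn induces inhibitors of the same route, among them Sprouty, SPRED and DUSP6. Hormone-like ligands such as FGF19 bind heparan sulfate weakly and need a Klotho protein, mainly KLB, for which FGFR4 is the usual partner. In lung adenocarcinoma with mutant *EGFR*, FGF receptors are known as kinases that can feed the same RAS route beside EGFR.

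The libraries held 23201307 and 29062064 expected counts (estimated reads per gene, not normalised) in the PC9 replicates, and 31948974 and 32203998 in the PC9OR replicates. Levels are given as the deposited FPKM (fragments scaled to transcript length and library size), which can be compared between genes, or as CPM (counts scaled to the normalised library), which can be compared only between libraries. A level of 3 counts was taken as the smallest that the depth could show, between 0.0932 and 0.129 CPM in a library, and it covers counting error only. All 6 epithelial markers were expressed in both lines, and 5 of them differed between the lines. EPCAM stood at 148 and 145 FPKM in PC9 and 139 and 146 FPKM in PC9OR. CDH1 (E-cadherin) was lower, at 59.5 FPKM in PC9 and 21 FPKM in PC9OR (log2 fold change -1.46, SE 0.18, edgeR adjusted p = 0.00814). The keratins KRT7, KRT8, KRT18 and KRT19 were higher, with log2 fold changes of 0.94, 1.28, 1.13 and 0.96, the largest for KRT8 (edgeR adjusted p = 0.00568). The lung lineage markers were at or near 0, with NKX2-1 at 0 counts in both PC9 libraries and 4 and 12 counts in PC9OR, and SFTPB and SFTPC listed in none. Summed over the 6 fibroblast markers, the level was between 0.2 and 0.26 FPKM in every library, and none of the 3 that were tested was called. The 5 leukocyte markers summed to 0.97 and 0.65 FPKM in PC9 and 0.22 and 0.27 FPKM in PC9OR. This was LYZ and CD14, neither of which was called, while PTPRC had 1 count in 1 library and CD3E had 0. The 4 endothelial markers summed to 6.47 and 4.1 FPKM in PC9 and 0.87 and 0.88 FPKM in PC9OR. Nearly all of this was CDH5, at 6.08 and 4.1 FPKM in PC9, while VWF had 0 counts in both PC9 libraries. CDH5 was called lower in PC9OR (log2 fold change -2.57, SE 0.23, edgeR adjusted p = 0.00529). Whether these marker differences had a part in the results below was not tested.

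The promoters of the genes that were higher in PC9OR are shown because FGFR3, FGFR4 and FGFBP1 moved in the same direction. Each sequence is RefSeq's, on GRCh38.p14, from 250 bases before to 50 bases after a transcription start, written 5′ to 3′ on the strand of the gene. Promoters were found for 8 of the 10 genes. Capitals mark the Sp1 motif GGGCGG or its reverse complement CCGCCC. FGFR3 lies at chr4:1793043-1793342 on the plus strand, the more upstream of the FGFR4 starts at chr5:177086665-177086964 on the plus strand, and FGFBP1 at chr4:15938691-15938990 on the minus strand.
FGFR3: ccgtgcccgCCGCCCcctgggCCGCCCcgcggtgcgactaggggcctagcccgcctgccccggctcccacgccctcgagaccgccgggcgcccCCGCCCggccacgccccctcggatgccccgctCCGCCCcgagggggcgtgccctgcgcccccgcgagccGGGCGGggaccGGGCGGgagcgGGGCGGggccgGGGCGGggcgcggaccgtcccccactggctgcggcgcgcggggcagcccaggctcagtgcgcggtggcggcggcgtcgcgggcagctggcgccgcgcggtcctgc
FGFR4: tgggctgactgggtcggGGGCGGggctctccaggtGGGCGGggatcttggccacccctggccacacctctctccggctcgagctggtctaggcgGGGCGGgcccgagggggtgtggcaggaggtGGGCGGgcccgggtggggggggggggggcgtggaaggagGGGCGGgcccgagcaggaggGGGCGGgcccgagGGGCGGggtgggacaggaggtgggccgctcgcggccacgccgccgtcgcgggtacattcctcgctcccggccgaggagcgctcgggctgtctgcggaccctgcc
FGFBP1: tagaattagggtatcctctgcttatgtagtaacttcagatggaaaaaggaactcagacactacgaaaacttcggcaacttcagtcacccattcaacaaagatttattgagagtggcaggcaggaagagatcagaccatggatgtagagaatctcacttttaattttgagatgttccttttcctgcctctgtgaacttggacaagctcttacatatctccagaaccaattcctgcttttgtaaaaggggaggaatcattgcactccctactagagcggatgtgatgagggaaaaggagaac

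The FGFR3 window held 8 Sp1 motifs, with 86.3% G and C and an observed over expected CpG ratio of 0.913. The FGFR4 window printed held 7, with 78.7% G and C and a CpG ratio of 0.698. A second FGFR4 start, at chr5:177089300-177089599, held 0, with 57.3% G and C and a CpG ratio of 0.0811, and which start the cells used was not measured. The FGFBP1 window held 0, with 42% G and C and a CpG ratio of 0.228. The windows of FGFRL1 and FRS2, which were lower in PC9OR, held 4 and 3 Sp1 motifs, with CpG ratios of 0.716 and 0.651. Over the 35097 promoters of the same length, 44.9% held the Sp1 motif on either strand, and the median CpG ratio was 0.579. The AP-1 motif TGANTCA, the ETS motif CCGGAA and the TATA motif TATAAA were searched on both strands as well. Of all promoters they were present in 7.71%, 17.3% and 11.5%, and each was absent from the 3 windows printed here. The FRS2 window held 2 ETS motifs. None of the 4 motifs contains another. The motif was thus found beside higher and lower members alike. These are matches of letters and not measured binding.

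FGFR3 showed the largest change of the 10 genes. It is a receptor kinase best known for activating mutations in bladder cancer and for its gene fusions with *TACC3*. It lies on chromosome 4 of GRCh37 from 1795020 to 1810599 (Entrez 2261). Its expected counts were 8 and 6 in the PC9 libraries and 107 and 104 in the PC9OR libraries. In FPKM the values were 0.06 and 0.03 in PC9 and 0.58 and 0.53 in PC9OR. PC9 was just above the limit of detection, and the PC9OR replicates lay close together and far above both PC9 replicates. The log2 fold change was 3.58 (SE 0.42), 12-fold higher, and FGFR3 was in position 119 from the top among 13148 genes tested. From counts pooled over replicates the ratio was 12.3, with an exact 95% binomial interval from 7.18 to 22.9 that covers counting error only. Omitting single libraries gave log2 fold changes for FGFR3 from 3.24, without PC9 replicate 2, to 3.95, without PC9 replicate 1.

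FGFR4, the receptor that pairs with KLB for FGF19, was the other receptor kinase that was higher in PC9OR. It lies on chromosome 5 of GRCh37 from 176513906 to 176525145 (Entrez 2264). FPKM values were 0.48 and 0.41 in PC9 and 1.3 and 1.16 in PC9OR. The replicates of each line were closer to each other than to any library of the other line. The log2 fold change was 1.45 (SE 0.27), 2.73-fold higher on 48 and 51 counts in PC9 against 175 and 159 counts in PC9OR.

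FGFR1 moved the other way. It is the receptor kinase most often tied to mesenchymal cells and to bypass of EGFR inhibition in lung cancer lines. FPKM values were 2.71 and 1.62 in PC9 and 0.75 and 0.83 in PC9OR (Entrez 2260, chromosome 8). The PC9 replicates differed more from each other than the PC9OR replicates did, and both PC9OR values were below both PC9 values. The log2 fold change was -1.40 (SE 0.28). Without PC9 replicate 1 it was -1.03, and when offsets took out each library's trend with transcript length and GC content it was -0.86, so the size of the FGFR1 difference depended on the PC9 libraries and on this trend. FGFR2, the epithelial receptor for FGF7 and FGF10, was at 0 and 1 counts in PC9 and at 0 and 1 counts in PC9OR, which is under the limit of 3 counts in every library.

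**Figure D1:**
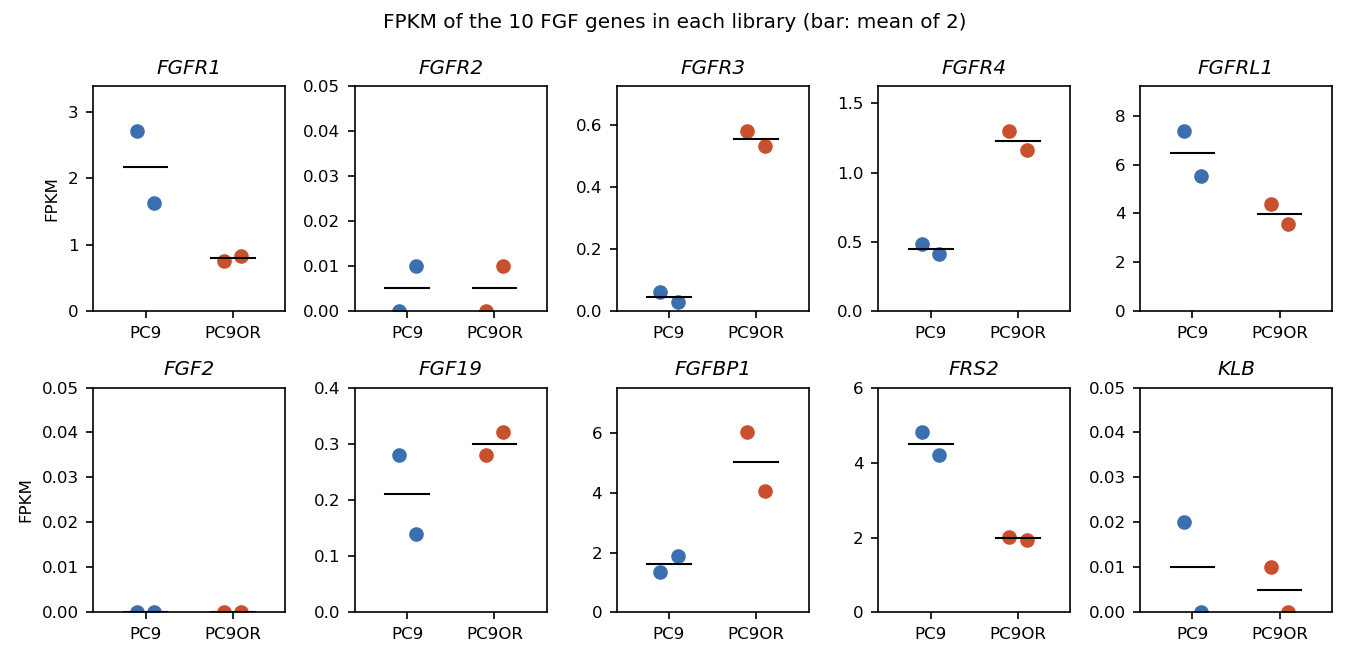
Deposited FPKM (vertical axis, from 0, a separate scale in each panel) of the 10 genes in PC9 (blue) and PC9OR (orange) libraries, with points for the 2 libraries and a line at their mean. FGFR3, FGFR4 and FGFBP1 are higher in both PC9OR libraries, FGFR1, FGFRL1 and FRS2 are lower, and FGFR2, FGF2 and KLB stay at or under 0.02 FPKM.

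The make-up of the receptor pool differed between the lines, while its summed level overlapped. The FPKM of FGFR1 to FGFR4 added up to 3.25 and 2.07 in PC9 and to 2.63 and 2.53 in PC9OR, so both PC9OR sums lay between the PC9 sums. FGFR1 made up 83.4% and 78.3% of the sum in PC9 and 28.5% and 32.8% in PC9OR. FGFR4 made up 14.8% and 19.8% in PC9 and 49.4% and 45.8% in PC9OR. FGFR3 went from 1.85% and 1.45% in PC9 to 22.1% and 20.9% in PC9OR. The ratio of FGFR1 to FGFR4 in FPKM was 5.65 and 3.95 in PC9 and 0.577 and 0.716 in PC9OR. FGFR1 was thus the most abundant receptor kinase of the family in PC9 and FGFR4 in PC9OR. These shares restate the levels on which the genes were chosen and carry no test.

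**Figure D2:**
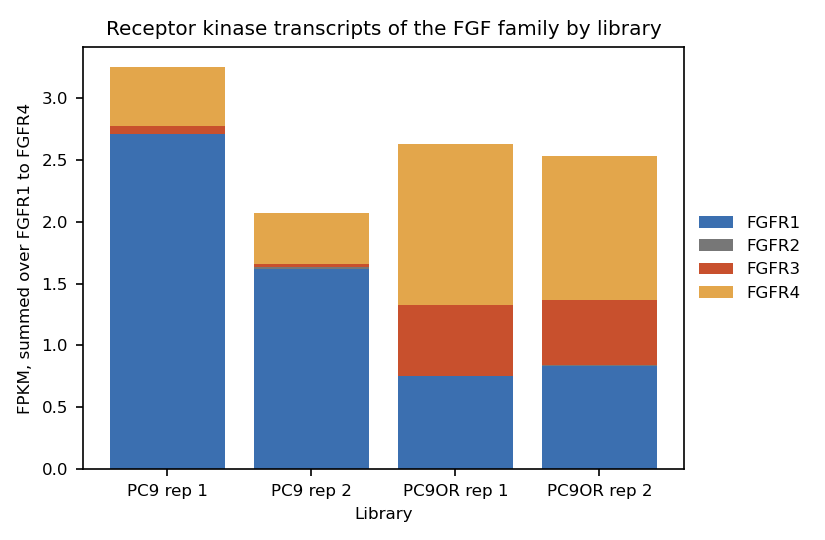
Deposited FPKM of FGFR1, FGFR2, FGFR3 and FGFR4 stacked for each of the 4 libraries (vertical axis, summed FPKM from 0). The sums lie between 2.07 and 3.25 FPKM, and FGFR1 (blue) gives way to FGFR4 (yellow) and FGFR3 (orange) in the PC9OR libraries.

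FGFRL1 has an extracellular part like that of the other receptors but no kinase domain, and it is held to bind ligand without signalling through a kinase. It was the most abundant of the 10 genes in PC9, at 7.38 and 5.54 FPKM, and stood at 4.38 and 3.56 FPKM in PC9OR. The lines did not overlap, but the gap between the lower PC9 and the higher PC9OR library, at 5.54 and 4.38 FPKM, was smaller than the gap between the PC9 replicates. The log2 fold change was -0.67 (SE 0.19). FGFRL1 and FGFR3 both lie near the end of the short arm of chromosome 4 and differed in opposite directions.

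FRS2, which docks on the receptors and carries their signal to GRB2 and SHP2, was at 4.82 and 4.22 FPKM in PC9 and 2.03 and 1.94 FPKM in PC9OR. Its replicates agreed closely in each line, and the log2 fold change was -1.15 (SE 0.12), the smallest standard error of the members. FRS2 has the longest transcript of the 10 genes, at 6836 bases in PC9 replicate 1. With offsets for transcript length its log2 fold change was -0.68, and with those for length plus GC content it was -0.86.

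Of the extracellular members, FGFBP1 showed the clearest difference. It encodes a secreted protein that releases FGFs stored on heparan sulfate. It was at 1.34 and 1.89 FPKM in PC9 and 6.03 and 4.06 FPKM in PC9OR. The PC9OR values lay above those of PC9 in each library, with a log2 fold change of 1.65 (SE 0.32), and in PC9OR it was the most abundant of the 10 genes by mean. FGF19, an endocrine ligand of the gut that is also made by some tumours, had 19 and 12 counts in PC9 and 26 and 30 counts in PC9OR. On the FPKM scale PC9 replicate 1 and PC9OR replicate 1 had the same value, 0.28. The log2 fold change of FGF19 was 0.52 (SE 0.51), about as large as its standard error. Without PC9 replicate 2 the log2 fold change of FGF19 was 0.09, and without PC9 replicate 1 it was 1.06. KLB, the co-receptor that FGF19 needs, had 4.05 and 0 counts in PC9 and 2 and 0 counts in PC9OR. FGF2, the widely expressed basic FGF, was listed in none of the 4 libraries and was taken as 0. The receptor that usually binds FGF19 was therefore higher in PC9OR in libraries where KLB was at the limit of detection.

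In PC9 the order of the levels in FPKM was FGFRL1, FRS2, FGFR1, FGFBP1, FGFR4, FGF19 and FGFR3, followed by KLB, FGFR2 and FGF2 near or at 0. FGFR1 and FGFBP1 overlapped in that order, and all other neighbours down to FGFR3 were apart in both libraries. In PC9OR the order was FGFBP1, FGFRL1, FRS2, FGFR4, FGFR1, FGFR3 and FGF19, followed by the same 3 genes. There FGFBP1 and FGFRL1 overlapped, and the others down to FGF19 were apart. All are low to moderate levels, with 7.38 FPKM as the highest value of any member.

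Of the 10 genes, 7 passed the filter on low counts, and FGFR2, FGF2 and KLB did not. In the fit across all genes (edgeR's quasi-likelihood test, Benjamini-Hochberg adjusted p under 0.05), 3 of the 7 were called higher in PC9OR, where 15.6% of all tested genes were, and 3 were called lower, where 20.8% were. Since the genes were chosen on this contrast, nothing is read from these counts. Of the alternative settings, 7 of 14 ended the call of FGFRL1, 2 that of FGFR4, and 1 each those of FGFR1 and FGFBP1. The median log2 fold change was 0.52 over the 7 genes and 0.01 over all tested genes. As a description over 13148 genes, the log2 fold change had a rank correlation of -0.341 with transcript length. Between the PC9 replicates the log2 difference had one of -0.382, and between the PC9OR replicates one of -0.00636. Calls and adjusted p from the fit without offsets carry this trend. Simulated counts with a length trend gave many false calls, but the size of that trend was set by hand and not matched to these data. How many of the calls here are false was not tested. Once offsets for length plus GC content were used, the share of lower genes among all calls went from 57.1% to 46.9%. The lower calls went from 2734 to 2602 and the higher calls from 2056 to 2946. Under those offsets the log2 fold changes of FGFR3, FGFR4 and FGFBP1 were 3.87, 1.54 and 1.49.

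Receptor tyrosine kinases as a class gave a scale for these levels. Of 58 receptor tyrosine kinases, 31 were tested, among them FGFR1, FGFR3 and FGFR4. FGFR3 had the highest log2 fold change of the 31 and FGFR4 the third highest, with EPHA4, an ephrin receptor, between them. Under the length and GC offsets FGFR3 stayed first and FGFR4 was in position 4, after INSR. FGFR1 was in position 28, next to EGFR in position 29. In level, however, the FGF receptors were low. By mean FPKM in PC9OR, FGFR4, FGFR1 and FGFR3 were in positions 23, 24 and 26 of the 31. EGFR was at 153 and 96.8 FPKM in PC9 and 40.9 and 37.5 FPKM in PC9OR. It was lower in PC9OR with a log2 fold change of -1.46 (SE 0.24, edgeR adjusted p = 0.0132). Under the length and GC offsets the log2 fold change of EGFR was -0.94, and it was still called lower (edgeR adjusted p = 0.00514). The level of EGFR was 2.56e+03 and 3.23e+03 times that of FGFR3 in the PC9 libraries and 70.5 and 70.8 times in the PC9OR libraries. Against FGFR4 the factor was 320 and 236 in PC9 and 31.5 and 32.3 in PC9OR. Against FGFR1 it was 56.6 and 59.7 in PC9 and 54.5 and 45.2 in PC9OR, so FGFR1 and EGFR kept a similar ratio.

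The kinases with the highest mean level in PC9OR were DDR1, a collagen receptor, at 49.3 FPKM, EPHA2 at 40 FPKM, EGFR at 39.2 FPKM and RYK, a WNT receptor, at 31.6 FPKM. Outside the FGF family, 28 kinases were tested, of which 7 were called higher (25%, against 15.6% of all genes) and 8 lower (28.6%, against 20.8%), with a median log2 fold change of 0.08. The largest called rises were those of EPHA4 at 2.15 (SE 0.13, edgeR adjusted p = 0.00327), INSR, the insulin receptor, at 1.02 (SE 0.15, edgeR adjusted p = 0.0113), and PTK7 at 0.73 (SE 0.14, edgeR adjusted p = 0.0183). Of the called falls besides EGFR, EPHA6 was at -1.78 (SE 0.44, edgeR adjusted p = 0.0343). EPHA7 had 46 counts over the PC9 libraries and 0 in PC9OR, at least 18.8-fold lower against a limit of 3 counts over the line. With the length and GC offsets INSR went to 1.88, and IGF1R, EPHB2 and RYK, named here for that reason, were no longer called. Their log2 fold changes went from -1.16 to -0.08, from -1.01 to -0.05 and from 0.39 to 0.24.

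**Figure D3:**
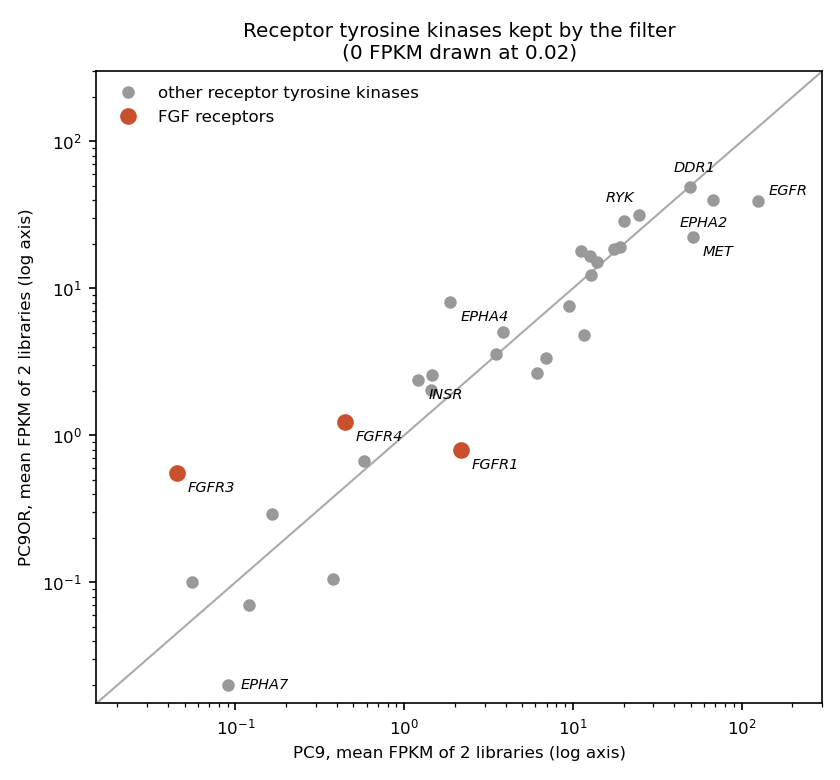
Mean FPKM of 2 libraries in PC9 (horizontal log axis) and PC9OR (vertical log axis) for the 31 receptor tyrosine kinases tested, with the line of equal level. FGFR3 and FGFR4 lie above the line and FGFR1 below it, all at levels under 2.2 FPKM, while EGFR lies at 125 and 39.2 FPKM, and EPHA7, at 0 in PC9OR, is drawn at 0.02.

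The rest of the FGF route was read from 9 lists by role, 95 genes without the 10 members, of which 66 were tested. In PC9OR 6 of them were called higher (9.09%, against 15.6% of all genes) and 23 lower (34.8%, against 20.8%), with a median log2 fold change of -0.35. With the length and GC offsets 12 were higher (18.2%, against 22.4% of all genes) and 20 lower (30.3%, against 19.8%). Of the calls without offsets, all 6 higher ones and 18 of the 23 lower ones were kept there. With offsets for length alone 12 were higher (18.2%, against 19.9% of all genes) and 17 lower (25.8%, against 18.5%). Without PC9OR replicate 1, 2 were higher (3.03%, against 3.88% of all genes) and 12 lower (18.2%, against 8.7%). Without PC9OR replicate 2, 2 were higher and 11 lower (16.7%, against 8.82%). Leaving out a PC9 library moved these counts as well, and their range is given beside that of all genes under the processing.

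Of the 20 other FGF ligands, 13 were listed in none of the libraries and 5 were tested. The single call was FGF12, at 0.65 and 0.74 FPKM in PC9 and 1.62 and 1.38 FPKM in PC9OR, a log2 fold change of 1.14 (SE 0.20, edgeR adjusted p = 0.0159). FGF12 belongs to the FGF homologous factors, which stay inside the cell and bind sodium channels and are not classical receptor ligands. FGF18 and FGF1, named after their values were seen, are secreted ligands. FGF18 had 6 and 1 counts in PC9 and 15 and 18 in PC9OR, and did not pass the test (edgeR adjusted p = 0.147). FGF1 had 0 and 39.05 counts in the PC9 replicates and 37 and 32 in the PC9OR replicates, so the PC9 replicates disagreed on it. The endocrine co-receptor KL had at most 3 counts in a library. Apart from FGF12, every FGF ligand was under 0.5 FPKM in each of the 4 libraries.

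Heparan sulfate is the co-factor of FGF binding. Of its 12 core proteins 9 were tested, 4 were lower (44.4%, against 20.8% of all genes) and 0 higher (against 15.6%). At an unadjusted p under 0.05 edgeR gave 4 lower and 2 higher. No share of all genes is given at that threshold, so nothing is read from these unadjusted counts. At an adjusted p under 0.05 DESeq2 gave 4 lower and 0 higher, against 23% and 18.6% of all genes. HSPG2 (perlecan), a basement membrane proteoglycan, was at 5.26 FPKM in PC9 and 0.665 FPKM in PC9OR (log2 fold change -2.93, SE 0.40, edgeR adjusted p = 0.00986), and the log2 fold change was -1.86 under the length and GC offsets. SDC3 was at 3.15 and 0.515 FPKM (log2 fold change -2.56, SE 0.36, edgeR adjusted p = 0.0103). SDC4, one of the most abundant core proteins, was at 75.9 and 42.9 FPKM (log2 fold change -0.79, SE 0.10, edgeR adjusted p = 0.00842). GPC6 had 77 counts over the PC9 libraries and 0 in PC9OR, at least 31.4-fold lower against a limit of 3 counts over the line. SDC1, the other abundant syndecan, named after its values were seen, was at 72.7 and 68 FPKM and did not pass the test (edgeR adjusted p = 0.654).

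Of the 20 heparan sulfate enzymes 14 were tested, 2 were higher (14.3%, against 15.6% of all genes) and 7 lower (50%, against 20.8%). EXT2, a polymerase of the chain, was at 67.3 FPKM in PC9 and 31.4 FPKM in PC9OR (log2 fold change -1.06, SE 0.12, edgeR adjusted p = 0.00706). HS3ST1, a sulfotransferase, was at 10.5 and 2.85 FPKM (log2 fold change -1.85, SE 0.19, edgeR adjusted p = 0.00631). HPSE, the heparanase that cuts the chain, was at 2.1 and 0.435 FPKM (log2 fold change -2.24, SE 0.22, edgeR adjusted p = 0.00564). SULF2, which removes 6-O-sulfate, was at 89.8 and 52.3 FPKM (log2 fold change -0.75, SE 0.18, edgeR adjusted p = 0.0306). EXTL2 was higher, at 9.51 and 16.4 FPKM (log2 fold change 0.82, SE 0.14, edgeR adjusted p = 0.0143). HS3ST2 had 2 counts over the PC9 libraries and 41 over the PC9OR libraries, with a log2 fold change of 3.94 (SE 0.94, edgeR adjusted p = 0.0308). The pooled ratio was 16.7, with an exact 95% binomial interval from 4.35 to 143 that covers counting error only. Under the length and GC offsets SULF2 went to -0.35, and EXTL3 and HS6ST2, named here for that reason, lost their lower calls, at 0.07 and -0.14. Genes that build the chain and genes that trim it were thus both among the lower ones.

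Among the surface partners of FGF receptors, 4 of 7 were tested. FLRT3, a membrane protein that binds FGF receptors, was at 0.495 FPKM in PC9 and 1.83 FPKM in PC9OR (log2 fold change 1.94, SE 0.23, edgeR adjusted p = 0.00751). L1CAM, an adhesion molecule, was at 0.2 and 0.745 FPKM (log2 fold change 1.95, SE 0.46, edgeR adjusted p = 0.0308). FLRT2, of the same family as FLRT3, had 121 and 100 counts in PC9 and 0 and 5 in PC9OR (edgeR adjusted p = 0.0137). Its pooled ratio was 0.0185, with an exact 95% binomial interval from 0.00594 to 0.0438 for counting error only. The 2 FLRT genes tested thus differed in opposite directions.

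Of the 13 adaptors and effectors other than FRS2, all were tested, 1 was higher (7.69%, against 15.6% of all genes) and 7 lower (53.8%, against 20.8%). The scaffold GAB2 was at 6.54 FPKM in PC9 and 2.33 FPKM in PC9OR (log2 fold change -1.45, SE 0.13, edgeR adjusted p = 0.00526). CBL, a ubiquitin ligase that removes receptors from the surface, was at 12.4 and 4.07 FPKM (log2 fold change -1.57, SE 0.19, edgeR adjusted p = 0.00761). The length and GC offsets brought CBL to -0.70 and GAB2 to -0.87. SOS1, the exchange factor for RAS, was at 7.54 and 3.79 FPKM (edgeR adjusted p = 0.0231), and PLCG1, a phospholipase that binds FGF receptors directly, at 8.93 and 4.83 FPKM (edgeR adjusted p = 0.0226). With the offsets their log2 fold changes went from -0.95 to -0.46 and from -0.85 to -0.34. PTPN11, named for this reason, went from -0.57 to -0.26 and lost its call. GAB1 fell by 0.79 on the log2 scale (edgeR adjusted p = 0.0188), and with the offsets it fell by 0.39 and was no longer called (edgeR adjusted p = 0.0523). The adaptor CRKL was the exception, at 18 FPKM in PC9 and 106 FPKM in PC9OR (log2 fold change 2.59, SE 0.11, edgeR adjusted p = 0.0022).

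The 14 feedback and target genes of the route were all tested, with 4 lower and 0 higher. At an unadjusted p under 0.05 edgeR gave 9 lower and 0 higher. No share of all genes is given at that threshold, so nothing is read from these unadjusted counts. At an adjusted p under 0.05 DESeq2 gave 4 lower and 0 higher, where it called 23% of all genes lower and 18.6% higher. The share lower in edgeR's adjusted calls was 28.6%, against 20.8% of all genes, and the share higher was 0%, against 15.6%. SPRY4 (Sprouty 4), an inhibitor induced by the route, was at 15.2 FPKM in PC9 and 4.94 FPKM in PC9OR (log2 fold change -1.57, SE 0.24, edgeR adjusted p = 0.0115). DUSP6, a phosphatase of the MAP kinase cascade, was at 67.8 and 31.9 FPKM (log2 fold change -1.06, SE 0.12, edgeR adjusted p = 0.00659). SPRED2 was at 5 and 1.92 FPKM (log2 fold change -1.31, SE 0.26, edgeR adjusted p = 0.0193). IL17RD (SEF), an inhibitor of FGF signalling, fell by 0.75 on the log2 scale (edgeR adjusted p = 0.018), and with the offsets it fell by 0.06 and was not called (edgeR adjusted p = 0.728). ETV4 and ETV5, transcription factors induced by FGF and named after their values were seen, had log2 fold changes of -0.47 and -0.33 and did not pass the test (edgeR adjusted p = 0.0834 and 0.0887).

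Of the 6 regulators of the alternative splicing that sets the ligand choice of FGF receptors, 0 were called by edgeR at an adjusted p under 0.05. Of all tested genes edgeR called 15.6% higher and 20.8% lower. DESeq2 called 0 higher and 2 lower at that threshold, where it called 18.6% of all genes higher and 23% lower. At an unadjusted p under 0.05 edgeR also gave 0 higher and 2 lower. No share of all genes is given at that threshold, so nothing is read from these unadjusted counts. ESRP1, the epithelial splicing factor, named after its values were seen, had a mean of 45.5 FPKM (SD 3.27, n = 2) in PC9 against 44 FPKM (SD 0.276, n = 2) in PC9OR, and did not pass the test (edgeR adjusted p = 0.912).

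**Figure D4:**
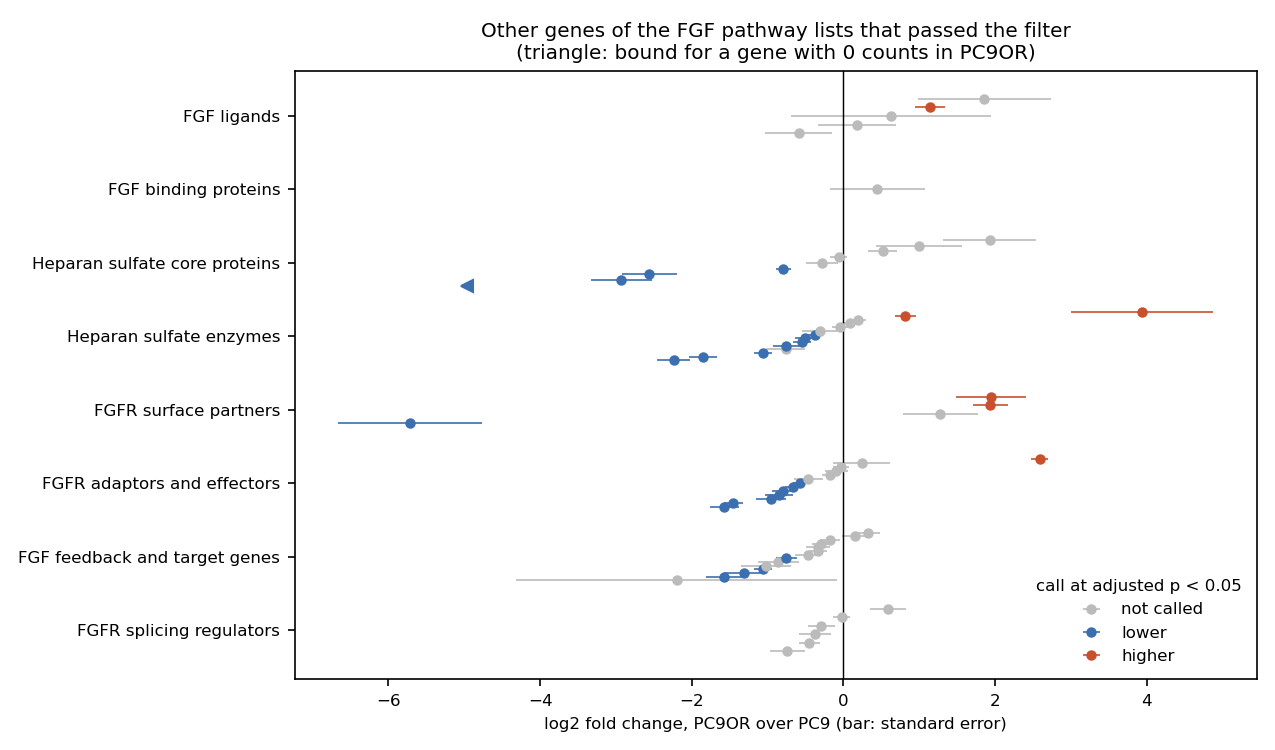
Log2 fold change of PC9OR over PC9 (horizontal axis, bars for the standard error) for the other FGF pathway genes that were tested, one row of points a list, coloured by the call at an adjusted p under 0.05. The triangle is GPC6, drawn at its bound. Apart from FLRT2, the 23 lower genes (blue) lie in the heparan sulfate, adaptor and feedback lists, and the 6 higher genes (orange) are FGF12, EXTL2, HS3ST2, L1CAM, FLRT3 and CRKL.

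The genes beside FGFR3 and FGFR4 on their chromosomes had lower log2 fold changes than they did. FGFR3 and FGFR4 were chosen on this contrast and held positions 119 and 652 from the top of 13148 genes. Few genes anywhere lie above them, so this comparison carries no test. For FGFR3, the 10 tested genes on each side centred on a log2 fold change of -0.06 (median), and 0 of the 20 were above FGFR3. Its nearest tested neighbours were TMEM129 at 0.32 (SE 0.11, edgeR adjusted p = 0.0725) and LETM1 at -0.28 (SE 0.12, edgeR adjusted p = 0.131). For FGFR4 the 20 neighbours had a median of 0.00 and 0 of them were above FGFR4. For FGFR1 the median was -0.01, and 1 of the 20 was below FGFR1. LETM2, which overlaps the end of FGFR1 and was looked up for that reason, had at most 1.63 CPM in a library. Around FGFBP1 the median was 0.07, around FRS2 -0.32 and around FGF19 -0.43. The nearest tested genes beside FGFBP1 did go with it at a smaller size, with FAM200B at 0.73 (SE 0.17, edgeR adjusted p = 0.0312) and TAPT1 at 0.66 (SE 0.18, edgeR adjusted p = 0.0416). FAM200B and TAPT1 were picked out after seeing their values.

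**Figure D5:**
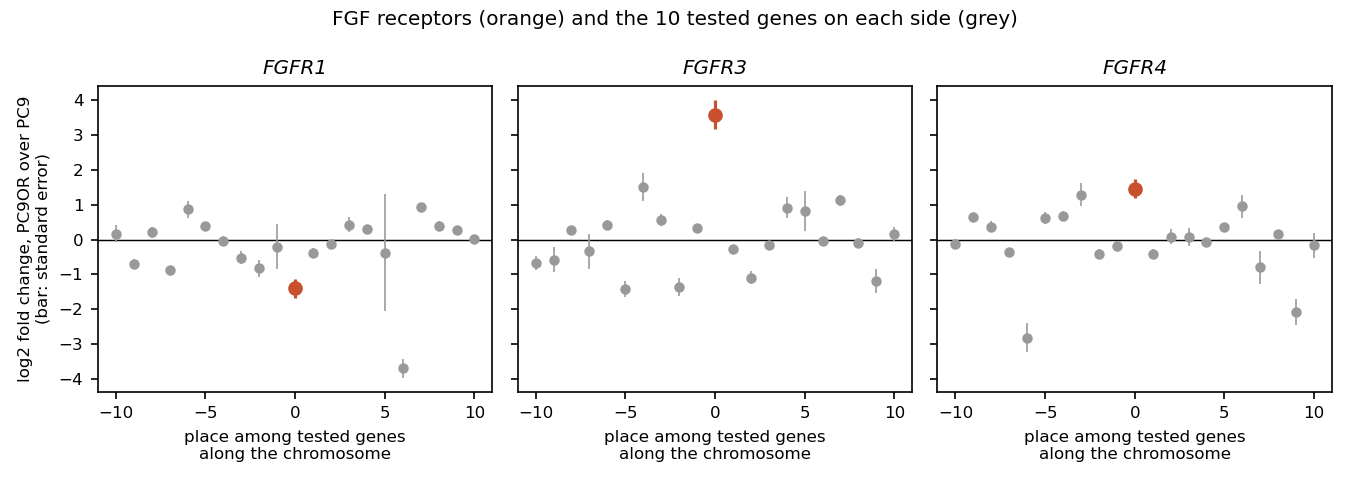
Log2 fold change of PC9OR over PC9 (vertical axis, bars for the standard error) for FGFR1, FGFR3 and FGFR4 (orange, place 0) and for the 10 tested genes on each side in chromosome order (grey, horizontal axis). The grey medians are -0.01, -0.06 and 0.00, and FGFR3 and FGFR4 stand above all 20 of their neighbours. FGFR3 and FGFR4 were chosen on this contrast, so their place above the neighbours carries no test.

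TOP3B, ZNF311, COL8A1 and SLC2A11 were among the 5 tested genes with the profile most like that of FGFR3 over the 4 libraries. Likeness was the Euclidean distance between log2(CPM + 0.5) values centred on their mean, which was 0.108 for TOP3B and 0.136 for SLC2A11. FGFR3 was at 0.341 and 0.208 CPM in PC9 and 3.34 and 3.25 CPM in PC9OR. TOP3B and SLC2A11 lie on chromosome 22, ZNF311 on chromosome 6 and COL8A1 on chromosome 3. The pseudocount compresses the difference of a gene as low as FGFR3 in PC9, so the measure can set it beside genes with smaller fold changes. The log2 fold change was 2.33 for TOP3B, 2.34 for COL8A1, 2.69 for SLC2A11 and 3.67 for ZNF311, against 3.58 for FGFR3.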

How the data were processed

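RNA of 2 PC9 and 2 PC9OR samples was sequenced from stranded TruSeq libraries. For each gene the authors deposited an expected count, an FPKM value rounded to 2 decimals and an isoform-weighted transcript length in bases. The submitters' processing notes name Bowtie2 2.2.5, RSEM 1.2.12 and GRCh37. A gene not listed was taken as 0. Library totals computed back from FPKM were 1.39 to 1.42 times what the listed counts add up to, so genes or reads may lie outside the tables used here.

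Symbols were found by Entrez identifier for 99.66% of 16813 genes. Positions are from GENCODE on GRCh37. Expected counts, rounded to whole numbers, entered edgeR 4.0.16 in R 4.3.3 (TMM, filterByExpr, glmQLFit, glmQLFTest), which left 13148 genes, with Benjamini-Hochberg adjustment over all of them and calls at an adjusted p under 0.05. DEGseq, named in the study's methods, was not installed. In simulated counts without a length trend the test recovered most changed genes with few false calls. In those with a length trend, set by hand and not matched to these data, it made many false calls unless length offsets were used. The replicates are labelled biological, with no statement that they were separate cultures, so p-values measure the spread between these samples. They differed beyond counting noise, with a chi-square over its degrees of freedom of 65.5 in PC9 and 9.93 in PC9OR. The members, the pathway lists and the tests were chosen with earlier results of these data known. Named genes were the members, pathway genes called (at most 6 a list, by size of change), 10 kinases by level and change, 5 genes with the profile nearest to FGFR3 (1 of them is not reported here), and the tested neighbours nearest to FGFR3. Others outside the marker lists are said in the text to have been named after their values were seen. Alternatives used DESeq2 1.42.0, limma 3.58.1 on log2(FPKM + 1) and log2(FPKM + 0.1), and offsets fitted with mgcv 1.9.3.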

Additional observations from a re-analysis of the deposited data

How the results depend on the processing

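The direction of all 7 tested members was kept under every alternative in which they were tested. As a description, the log2 fold change ran from -1.73 to -0.80 for FGFR1, 0.57 to 3.95 for FGFR3, 0.63 to 1.55 for FGFR4, -0.86 to -0.47 for FGFRL1, 0.09 to 1.06 for FGF19, 1.2 to 1.92 for FGFBP1 and -1.24 to -0.68 for FRS2. On the compressed scale of log2(FPKM + 1) the difference of FGFR3 was 0.57, and on log2(FPKM + 0.1) it was 2.18. FGFR3 was not tested with at least 10 counts in every library, since both PC9 libraries are under that limit, and its 8 and 6 counts there limit the precision of its fold change.

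Offsets for transcript length, with or without GC content, raised the pathway genes called higher from 6 to 12, and those called lower went from 23 to 17 with length alone and to 20 with both. At more than 2-fold and an adjusted p under 0.001, edgeR called 0 genes higher and 0 lower, and 0 pathway genes in either direction. At an unadjusted p under 0.05 and more than 2-fold there were 967 and 1718 genes, and 7 and 13 pathway genes. DESeq2's Wald test gave 497 and 1238 at the stricter threshold, with 3 and 12 pathway genes. Leaving out 1 library at a time, where a lone library is assumed to vary like the other line, all genes called higher ran from 525 to 3932 and lower from 1177 to 3929. Pathway genes ran from 2 to 10 higher and from 11 to 34 lower. The low ends came without a PC9OR library and the high ends without PC9 replicate 2, except the 10, which came without PC9 replicate 1. The causes were not tested. With the replicate number as a block, 2593 genes were higher and 2946 lower, with 9 and 27 pathway genes. The labels state no pairing, and the deviations of same-numbered libraries had a correlation of 0.0553 across genes, so the numbers were not used as pairs.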

Other observations

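The isoform-weighted transcript length of FGFR4 was 3106 and 3090 bases in the PC9 libraries and 3024 and 3016 bases in the PC9OR libraries, so both PC9OR values were below both PC9 values. For FGFR3 the lengths were 4093 and 4287 bases in PC9 and 4081 and 4293 bases in PC9OR, so the replicates of a line differed more than the lines did. For FGFR1 they were 5322 and 5372 bases in PC9 and 5418 and 5357 bases in PC9OR. These lengths are estimates from few reads and carry no test.

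ANO1, a chloride channel and the nearest tested gene on the far side of FGF19 on chromosome 11, was at 165 and 109 CPM in PC9 and 34 and 44.5 CPM in PC9OR, a log2 fold change of -1.81 (SE 0.25, edgeR adjusted p = 0.0101). It was singled out after its values were seen. FGF19 itself had 19 and 12 counts in PC9 and 26 and 30 in PC9OR.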
